A study of Arabidopsis thaliana with 6 samples.

Results

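In deposited units, AGO1-bound small RNAs fell at least 4-fold in both mutants at 4 loci, outside the genes and blocks left out below. The 4 loci were the pentatricopeptide repeat (PPR) genes AT1G12775 and AT1G12620, the pseudogene AT3G42300 and the gene AT4G03728, whose product is uncharacterized. They were chosen from the deposited genotype means: at least 10 units in wild-type Col-0 and at most 25% of the Col-0 value in each mutant. Plastid and mitochondrial genes, MIR822 (AT5G03552), the main PPR cluster (AT1G62250 to AT1G63650) and the blocks AT2G07660 to AT2G07835, AT2G09000 to AT2G12999, AT3G30000 to AT3G33999 and AT5G29000 to AT5G34999 were left out. Of 32420 loci 1269 had at least 10 units in Col-0, and 835 of these remained. The 4 made up 0.479% of the 835. This count depended on the scaling, since the same rule chose 44 to 693 loci under other scalings of the libraries. A further 18 loci passed the same thresholds but were left out, of which 15 lay in the main PPR cluster, 2 in AT3G30000 to AT3G33999 and 1 was MIR822.

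Small RNAs bound to ARGONAUTE1 (AGO1) were sequenced from whole aerial parts of untreated Arabidopsis thaliana plants aged 20 days, grown for 6 days on medium and 14 days on soil. There were 2 libraries of each of 3 genotypes, namely Col-0, ein5-1 dcl4-2 (ein5 dcl4) and ein5-1 dcl4-2 dcl2-1 (ein5 dcl4 dcl2), so both mutants lack EIN5 and DCL4 function and only the second also lacks DCL2. All material was immunoprecipitated with an AGO1 antibody, and loading onto AGO1, small RNA abundance per cell and the share of cells that make it cannot be told apart.

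AGO1 is the main ARGONAUTE of plant miRNAs and of siRNAs that act on mRNA. For some plant transcripts, cleavage guided by a miRNA or by a trans-acting siRNA is followed by copying into double-stranded RNA by RDR6, and DCL4 cuts this into phased 21-nt siRNAs. DCL2 makes 22-nt siRNAs, and EIN5, also called XRN4, degrades uncapped mRNA in the cytoplasm. PPR proteins bind organellar RNA, and PPR genes related to restorer-of-fertility genes are known sources of phased siRNAs in wild-type Arabidopsis.

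The 4 loci lay on 3 chromosomes of the RefSeq TAIR10.1 assembly. AT1G12775 is a single-exon gene on the plus strand at chr1:4353842-4355929, and AT1G12620 has 2 exons on the minus strand at chr1:4294552-4297178. AT3G42300 is a pseudogene with 4 exons on the plus strand at chr3:14454332-14455596. AT4G03728 has 3 exons on the minus strand at chr4:1652242-1652976. AT1G12775 overlaps AT1G12780 (UGE1, a UDP-galactose epimerase gene), which itself held 1 and 2 reads in Col-0; the others overlap no annotated gene.

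Both PPR genes held a stretch partly complementary to miR173, a 22-nt miRNA that starts the siRNA cascade at the TAS1 and TAS2 transcripts. The sequences are shown because the PPR pair matched miR173 more closely than the other 2 loci did. The same held for every other miRNA searched below. In the miRNA the capitals mark the seed, bases 2 to 8. In the sites, read 5′ to 3′ on the mRNA strand, capitals mark bases that pair with miR173 and lower case marks mismatches, G:U pairs included. All come from RefSeq TAIR10.1.
miR173-5p: tTCGCTTGcagagagaaatcac
AT1G12775 site, chr1:4354224-4354245: GTGtTagCTCTCTGCAAGCaAA
AT1G12620 site, chr1:4296457-4296478: GTGtTagaTCTCTGCAAGCaAA

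Both sites lay in coding sequence, and each had a mismatch opposite a base of the seed. Transcripts were searched on the mRNA strand as the joined exons of all isoforms of each protein-coding gene. Noncoding transcripts such as TAS1 and TAS2 were not among them. The site in AT1G12775 had 4 mismatches without gaps, and only 3 of 26712 protein-coding transcripts (0.0112%) held a match that close. The others were AT1G12300, a tetratricopeptide repeat gene that shares sequence with both PPR members, and the PPR gene AT3G16710. AT1G12300 held 179 and 126 reads in Col-0 (32.7 units), whereas AT3G16710 held 3 and 1 (0.406 units). The site in AT1G12620 had 5 mismatches, as few as 40 transcripts (0.150%), of which 5 were annotated as PPR. AT3G42300 and AT4G03728 had 10 and 8 mismatches at best, values reached by 96.5% and 30.7% of transcripts. These matches are a description of the letters and not evidence of cleavage.

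Matches to the PPR-directed miRNAs miR161.1, miR161.2 and miR400 were searched in the same way. AT1G12775 had 5 mismatches to each of them, a value reached by 0.412%, 0.633% and 0.644% of transcripts. AT1G12620 had 6, 6 and 4, reached by 1.95%, 3.56% and 0.198%. The pseudogene AT3G42300 and AT4G03728 had 8 to 10 mismatches to each. The 4 miRNAs were picked after the PPR members were seen.

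Reads match these loci unequally well. Of the exonic 21-mers of AT1G12775, 30.8% also occurred elsewhere in the genome, and the values were 29.3% for AT1G12620, 36.9% for AT3G42300 and 1.37% for AT4G03728. The median over 828 loci with at least 10 units in Col-0 was 36.6%, and over 91 of the 94 loci that passed in ein5 dcl4 only it was 16.1%. Whether the authors' counting placed a multiply matching read at 1 locus or several is not given in the sources used here, so part of the reads at the first 3 loci may belong to other copies.

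The PPR pair shared sequence mainly with each other and with AT1G12300. AT1G12775 and AT1G12620 had 351 21-mers in common, which was 17.0% of those of AT1G12775 and 14.0% of those of AT1G12620. AT1G12300 held 21.5% of the 21-mers of AT1G12775 and 23.3% of those of AT1G12620. With AT1G62670, AT1G62910 and AT1G63070 of the main PPR cluster, AT1G12775 shared 1 21-mer each (0.0484%). AT1G12620 shared none with these 3 genes. The longest run of identical bases between the PPR pair, 76 bases of coding sequence, is printed because reads inside it cannot be placed at 1 of the genes.
AT1G12775, chr1:4355451-4355526, plus strand: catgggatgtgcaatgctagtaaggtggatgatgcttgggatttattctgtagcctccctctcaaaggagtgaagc
The same bases lie in AT1G12620 at chr1:4295176-4295251 on the minus strand.

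AT3G42300 shared 21-mers with 23 other annotated loci. Its closest, AT4G07500, held 11.6% of its 21-mers, AT3G42070 9.67% and AT2G09865 8.98%, all without a known product. AT4G03728 shared none with any other annotated gene.

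Values are in deposited units, small RNA reads at a locus scaled by a factor per library, and are not divided by gene length. Libraries held 836879 to 1292727 recovered reads. Each Col-0 read counted for 0.185 units in library a and 0.257 units in library b. A read of a mutant weighed more, at 1.92 and 2.79 units in ein5 dcl4 and 1.71 and 1.9 units in ein5 dcl4 dcl2. A count of 0 therefore allows up to 5.75 and 8.37 units in ein5 dcl4 and 5.12 and 5.70 units in ein5 dcl4 dcl2, from 3 reads per library, which covers counting error only. All levels against Col-0 below were used to choose the loci and are given as a description without a test.

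AT1G12775 had the highest Col-0 level of the 4, with 345 and 263 reads, or 63.9 and 67.5 units (65.7 ± 2.55, SD, n = 2). It held 5 reads and 1 read in ein5 dcl4, which was 6.18 ± 4.80 units, and no library of the triple mutant held any (0 and 0 reads). The Col-0 mean was 10.6 times that of ein5 dcl4 and at least 12.1-fold higher than in ein5 dcl4 dcl2, taking the limit of 3 reads per library. Both Col-0 libraries lay far above all 4 mutant libraries.

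AT1G12620, the second PPR gene, held 214 and 147 reads in Col-0, or 39.6 and 37.7 units (38.7 ± 1.34, SD, n = 2). The ein5 dcl4 libraries held 6 reads and 1 read (7.14 ± 6.15 units), and both ein5 dcl4 dcl2 libraries held 0. The Col-0 mean was 5.42 times that of ein5 dcl4 and at least 7.15-fold higher than in ein5 dcl4 dcl2. Reads in ein5 dcl4 were mostly in library a at both PPR genes.

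The pseudogene AT3G42300 held 185 and 137 reads in Col-0, or 34.3 and 35.2 units (34.7 ± 0.638, SD, n = 2). It had 5 reads and 1 read in ein5 dcl4 (6.18 ± 4.80 units) and 0 and 8 reads in ein5 dcl4 dcl2 (7.60 ± 10.7 units). The Col-0 mean was 5.61 and 4.57 times those of the mutants. The ein5 dcl4 dcl2 libraries disagreed, since library b alone stood at 15.2 units, which is over 25% of the Col-0 mean, and library a at 0.

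AT4G03728 had the lowest Col-0 level, with 68 and 32 reads, or 12.6 and 8.21 units (10.4 ± 3.10, SD, n = 2). The ein5 dcl4 libraries held 0 reads and 1 read (1.39 ± 1.97 units), and the ein5 dcl4 dcl2 libraries held 2 and 0 reads (1.71 ± 2.42 units). The Col-0 libraries were again higher than every mutant library, but the floor of a mutant library is close to the Col-0 level, so the size of the loss is not resolved at this depth.

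**Figure D1:**
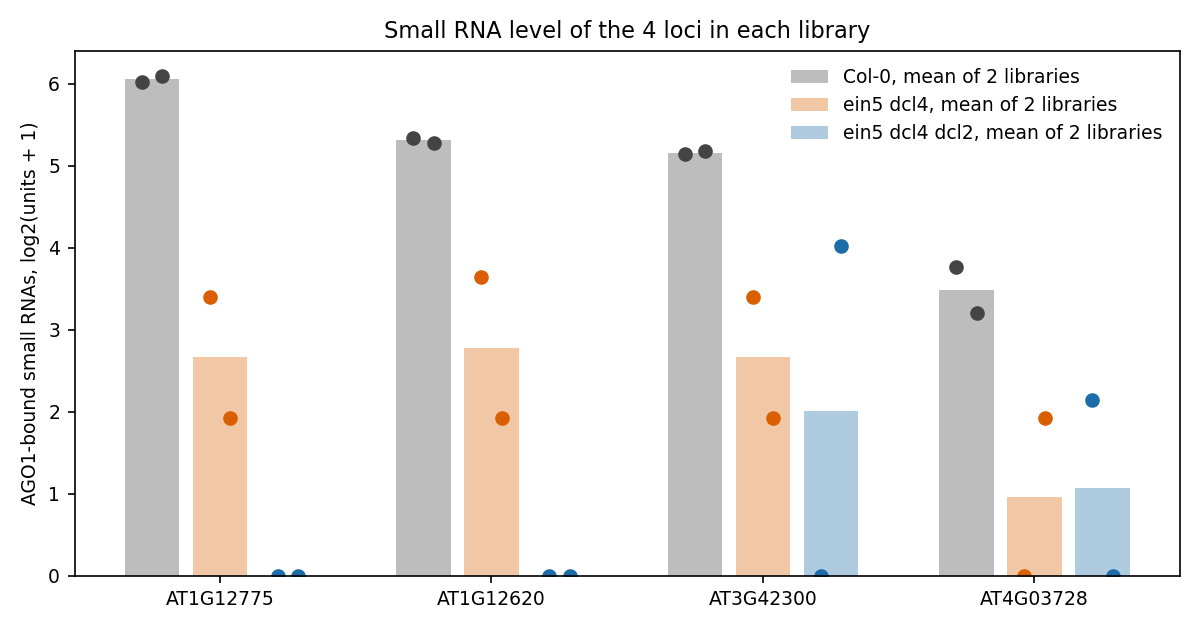
Small RNA level of each locus in each library on the log2(units + 1) scale, with a point per library and a bar at the mean of 2 libraries on that scale. Col-0 libraries stand above every mutant library at all 4 loci, and AT1G12775 and AT1G12620 are at 0 in both ein5 dcl4 dcl2 libraries.

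In Col-0 the order of levels was AT1G12775, AT1G12620, AT3G42300 and AT4G03728. The libraries of AT1G12620 (37.7 and 39.6 units) and AT3G42300 (34.3 and 35.2) did not overlap, yet they differed by only a few units. In ein5 dcl4 the first 3 could not be ordered, since each had 5 or 6 reads in library a and 1 in library b.

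Losses rested on few reads near the thresholds. AT3G42300 stood at 17.8% and 21.9% of Col-0 in ein5 dcl4 and ein5 dcl4 dcl2, AT1G12620 at 18.5% and 0%, AT4G03728 at 13.4% and 16.4% and AT1G12775 at 9.41% and 0%. One further read in library b of either mutant would have put AT4G03728 outside. For AT3G42300 it took 2 reads in library b of either mutant, for AT1G12620 2 in ein5 dcl4 and for AT1G12775 8 in ein5 dcl4. Just outside the 25% threshold were the pseudogenes AT5G28790 at 27.2% in ein5 dcl4, AT1G43724 at 27.6% in ein5 dcl4 and AT2G06670 at 28.4% in ein5 dcl4 dcl2. Just under the Col-0 minimum were AT4G06524 at 9.56 units, AT4G07498 at 8.64 and AT4G22485, a lipid-transfer-type protein gene, at 8.47 with 0 reads in all mutant libraries.

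The 835 loci with at least 10 units in Col-0 were mostly pseudogenes (636), with 132 protein-coding genes and 60 miRNA loci. Their median level was 56.7% of Col-0 in ein5 dcl4 and 82.4% in ein5 dcl4 dcl2. Protein-coding genes alone had medians of 48.3% and 76.1%, and miRNA loci of 49.1% and 889%. All these medians hold for the deposited scaling only. Trimmed-mean rescaling multiplied the ein5 dcl4 libraries by 0.236 and 0.218, equal miRNA totals by 1.72 and 1.40 and equal table totals by 0.0951 and 0.101. The factors for ein5 dcl4 dcl2 were 0.467 and 0.448, 0.0866 and 0.102, and 0.125 and 0.147. In deposited units, at most 25% of Col-0 was reached in ein5 dcl4 only at 94 loci and in ein5 dcl4 dcl2 only at 26 loci. Of the 4 loci 3 were protein-coding and 1 was a pseudogene.

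**Figure D2:**
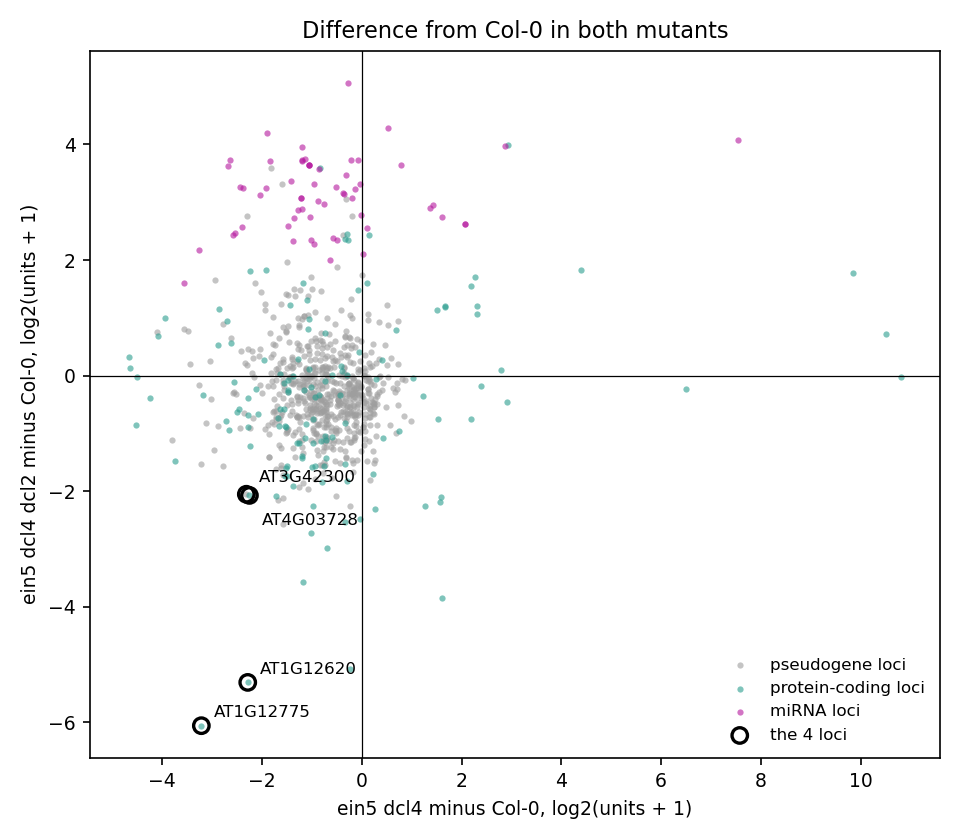
Difference from Col-0 in ein5 dcl4 (horizontal) and ein5 dcl4 dcl2 (vertical), both as log2(units + 1) of genotype means, for loci with at least 10 units in Col-0 outside the left-out blocks; 7 loci without a class in the RefSeq table are not drawn. The PPR genes AT1G12775 and AT1G12620 lie at the bottom left, while AT3G42300 and AT4G03728 lie at the edge of the cloud of pseudogenes.

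The comparison of ein5 dcl4 dcl2 against ein5 dcl4 asks whether the few remaining small RNAs depend on DCL2. The choice of loci did not use this difference, but it capped the level of both mutants at a fixed share of Col-0. Both sides were thus selected to be low, and the p-values below do not come from a test independent of that choice. All 4 loci passed the filter of a mean of at least 1 unit. AT1G12775 was lower without DCL2 by -2.66 ± 0.55 (SE) on the log2(units + 1) scale and AT1G12620 by -2.78 ± 0.62 (limma adjusted p 0.0149 and 0.0183 over 11376 loci), on 6 and 7 reads in ein5 dcl4 against 0 in the triple mutant. In library b of ein5 dcl4 each gene had a single read, or 2.79 units, which is under the limit of a count of 0, so the order of the libraries is not resolved. The drop is not resolved in size either, because means of 6.18 and 7.14 units stand beside limits of 5.12 and 5.70 units. AT3G42300 differed by -0.65 ± 1.37 (SE) and AT4G03728 by 0.11 ± 0.97 on the log2 scale, with limma adjusted p of 0.720 and 0.934, and neither passed.

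Such calls were common across the table, where 35.9% of loci were lower and 11.3% higher in ein5 dcl4 dcl2, or 47.2% in all. The middle locus of the table differed by -1.33 on the log2 scale. That median was 0.53 after trimmed-mean rescaling, -2.42 when miRNA totals were set equal and 0.32 when table totals were, and the 2 PPR genes stayed negative in all of these. Both PPR calls ended with equal table totals (limma adjusted p 0.0953 and 0.0863), without either Col-0 library (0.0601 to 0.0649) and without either ein5 dcl4 dcl2 library (0.0584 to 0.0716). Without these single libraries the differences stayed at -2.66 and -2.78, while with equal table totals they were -0.65 and -0.71. AT3G42300 passed with equal miRNA totals only, at -2.54 with a limma adjusted p of 0.0319. In the authors' deposited table the log2 fold change of ein5 dcl4 over ein5 dcl4 dcl2 was 4.30 for AT1G12775 and 4.49 for AT1G12620, with adjusted p of 0.0698 and 0.0711. The same table gave -0.22 for AT3G42300 and -0.52 for AT4G03728, with adjusted p of 0.924 and 0.902, and had 19.5% of 4461 loci under 0.05. Its log2 fold change of ein5 dcl4 over Col-0 was -3.33 for AT1G12775, with the authors' adjusted p of 0.0103. For AT1G12620, AT3G42300 and AT4G03728 it was -2.38, -2.43 and -3.10, with adjusted p of 0.131, 0.149 and 0.320. The loci were chosen for this difference, so only AT1G12775 lay under 0.05 even among loci selected to be low.

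Summed over the 4 loci, Col-0 libraries held 812 and 579 reads, ein5 dcl4 libraries 16 and 4, and ein5 dcl4 dcl2 libraries 2 and 8. The sums were 30.6 and 11.2 units in ein5 dcl4 and 3.42 and 15.2 units in ein5 dcl4 dcl2. The mutants overlapped, with a two-sided exact permutation p of 0.667, where 2 libraries against 2 cannot give less than 0.33. A difference between the mutants in the summed level was not detectable with these libraries, at loci chosen for low levels in both mutants.

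The surroundings of the loci differed. The 5 neighbours on each side of AT1G12775 and AT1G12620 were nearly free of small RNAs in Col-0, at no more than 0.349 and 0.0926 units. In ein5 dcl4 those neighbours reached up to 10.9 units at AT1G12780 and 4.79 units at AT1G12580 (PEPKR1, a protein kinase gene), on 10 and 5 reads.

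Among the 10 neighbours of AT3G42300, 5 had at least 10 units in Col-0. These stood at 32.8% to 69.2% of Col-0 in ein5 dcl4 and at 21.8% to 110% in ein5 dcl4 dcl2. The adjacent pseudogene AT3G42290 held 41.0 units in Col-0, 28.4 in ein5 dcl4 and 8.93 in ein5 dcl4 dcl2, and AT3G42305 on the other side held 22.6, 8.01 and 24.9. The next gene, AT3G42310, fell short of the threshold at 37.5, 12.3 and 10.5 units.

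AT4G03728 also lay among small RNA loci, since 5 of its 10 neighbours had at least 10 units in Col-0. In ein5 dcl4 these stood at 9.23% to 84.2% of Col-0, with 2 at or below 25%, and in ein5 dcl4 dcl2 at 18.7% to 171%, with 1 at or below 25%. AT4G03740 held 51.0 units in Col-0, 4.70 in ein5 dcl4 and 40.2 in ein5 dcl4 dcl2. The adjacent pseudogene AT4G03726 held 37.0, 31.2 and 6.93 units, and AT4G03730 on the other side 15.9, 3.75 and 27.3. Within a few genes, loci were thus low in 1 mutant, the other or both.

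**Figure D3:**
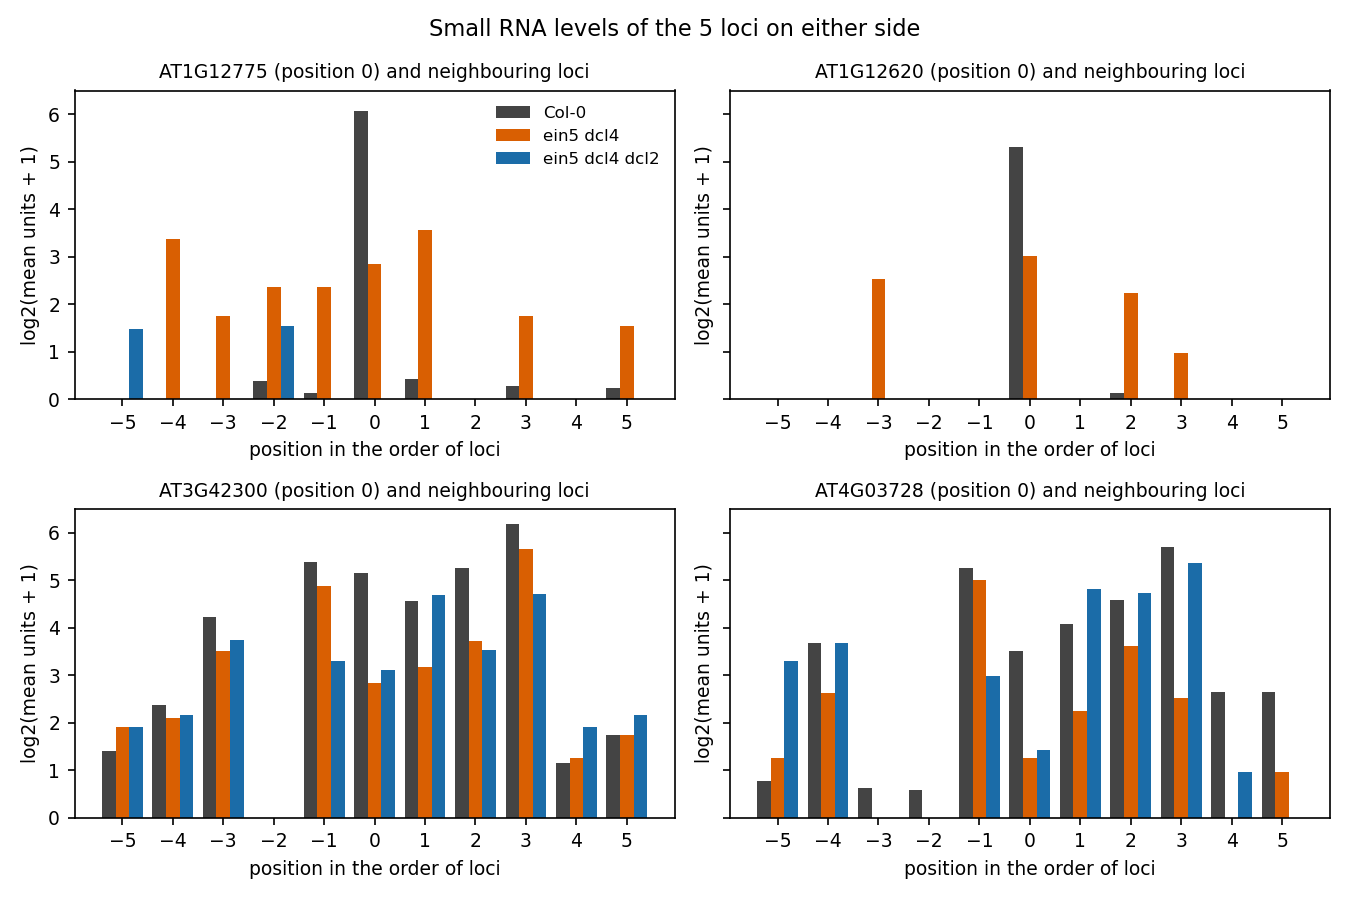
Mean small RNA level of each locus (position 0) and the 5 loci on either side in table order, as log2(mean units + 1), with a bar per genotype. The Col-0 bars of AT1G12775 and AT1G12620 stand alone, whereas AT3G42300 and AT4G03728 sit among loci with Col-0 levels of up to 72.1 and 51.0 units.

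Among the 260 loci whose product name holds pentatricopeptide, small RNAs were restricted to few genes in Col-0. Outside the main cluster 233 had less than 1 unit, and 3 had at least 10: AT1G12775, AT1G12620 and AT5G16640. AT5G16640 missed the 25% threshold, with 16.4 units in Col-0, 5.66 in ein5 dcl4 and 3.61 in ein5 dcl4 dcl2. In the main cluster 8 such loci had at least 10 units and all 8 passed both thresholds, from 1588 units in Col-0 at AT1G63080 to 43.9 at AT1G63320. The PPR pair thus lay near or below the low end of the main cluster in Col-0, and 6 of these 10 loci had no read in the triple mutant. The product name misses relatives named otherwise, such as RPF2, RPF3 and AT1G12300.

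AT1G12300, which shared the most 21-mers with the pair, was less reduced in ein5 dcl4 in deposited units. It held 179 and 126 reads in Col-0 (32.7 ± 0.572 units, SD, n = 2) and 10 and 13 reads in ein5 dcl4 (27.7 ± 12.1 units), and none was counted in the triple mutant. The PPR members showed no overlap of ein5 dcl4 and Col-0, but they were chosen for a low ein5 dcl4 level, a threshold that AT1G12300 missed. In units ein5 dcl4 and Col-0 overlapped at AT1G12300. That overlap ended with trimmed-mean rescaling, where AT1G12300 held 4.51 and 7.89 units in ein5 dcl4 beside 33.8 and 31.7 in Col-0, and with equal table totals, where it held 1.82 and 3.66 beside 34.6 and 31.0. The difference between these genes was not tested.

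**Figure D4:**
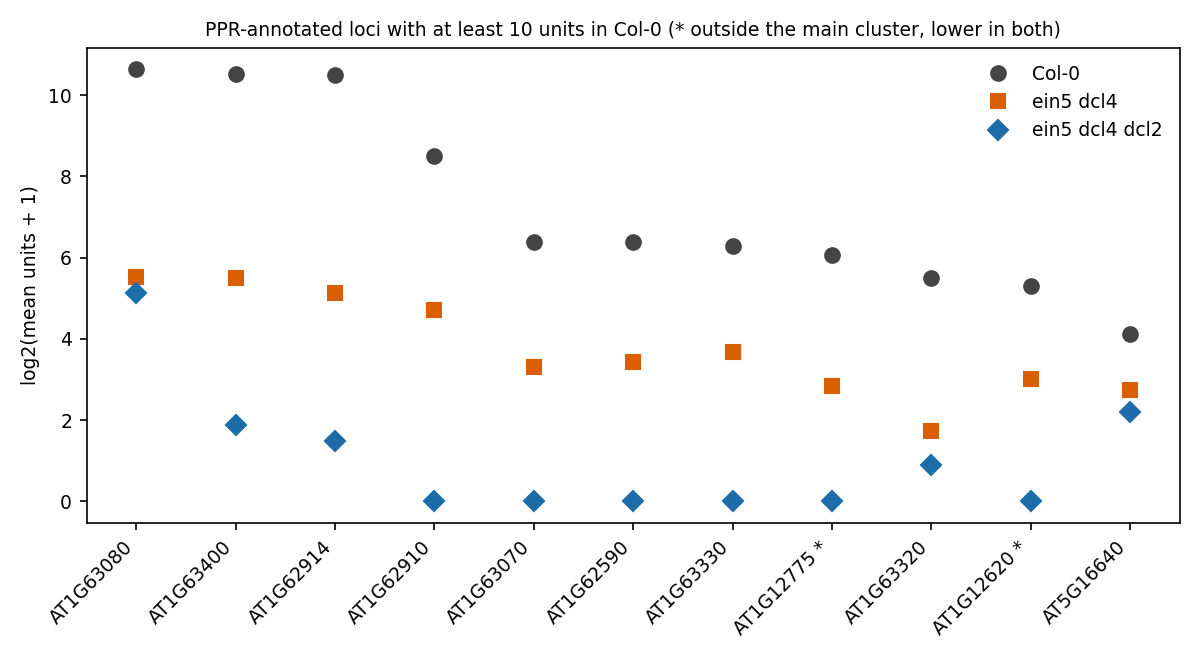
Genotype means of the 11 loci annotated as PPR with at least 10 units in Col-0, ordered by Col-0 level, as log2(mean units + 1). In each locus the Col-0 point is highest and the ein5 dcl4 dcl2 point lowest, with AT1G12775 and AT1G12620 at 0 in ein5 dcl4 dcl2.

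MIR173, the locus of the miRNA whose sites are printed above, held 1840 ± 344 units in Col-0, 349 ± 90.1 in ein5 dcl4 and 11004 ± 2862 in ein5 dcl4 dcl2 (SD, n = 2). MIR161 held 2746 ± 180, 1950 ± 494 and 13993 ± 94.9 units. The order of these genotypes depended on the scaling. With trimmed-mean rescaling MIR173 held 5053 units in the triple mutant beside 1846 in Col-0, but it held 1023 beside 1859 with equal miRNA totals and 1473 beside 1852 with equal table totals. MIR161 likewise held 6401 units in the triple mutant with trimmed-mean rescaling, 1322 with equal miRNA totals and 1902 with equal table totals, beside 2744 in Col-0 each time. No direction against Col-0 is therefore given for either miRNA in the triple mutant, and a relation to the PPR pair was not tested.

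Genes of the siRNA pathway and its known products were read from lists drawn up from textbook knowledge. The 8 TAS loci were not analysed here. Of 17 phasiRNA-producing genes 13 were tested, among them AT1G62590, which lies in the main PPR cluster. In ein5 dcl4 against Col-0, 7 were higher and 1 lower, beside 38.7% and 6.45% of all loci (45.1% in either direction). The gene called lower was AT1G62590. With trimmed-mean rescaling 1 of 11 was higher and 4 lower, with equal miRNA totals 11 of 13 and 1, and with equal table totals 0 of 10 and 7. Without Col-0 library a 1 was higher, without Col-0 library b 2 and without ein5 dcl4 library b 4, and the locus called lower was lost without either Col-0 library. AT5G38850, a disease resistance gene of the TIR-NBS-LRR class, held 713 units in Col-0, 874 in ein5 dcl4 and 686 in ein5 dcl4 dcl2.

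In ein5 dcl4 dcl2 against Col-0, 0 of the 13 phasiRNA genes were higher and 1 lower, beside 1.08% and 0.299% of all loci (1.38% in either direction). The lower gene was again AT1G62590. The number lower was 5 of 11 with trimmed-mean rescaling, 8 of 13 with equal miRNA totals and 10 of 10 with equal table totals, and 0 without either Col-0 library or either library of the triple mutant. In ein5 dcl4 dcl2 against ein5 dcl4, 0 were higher and 8 lower, beside 11.3% and 35.9% of all loci. With trimmed-mean rescaling 3 of 11 were higher and 5 lower, with equal miRNA totals 13 of 13 were lower and with equal table totals 7 of 10. The number lower was 5 without either Col-0 library and 5 without ein5 dcl4 library b.

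Of 11 tasiRNA targets, 8 were tested and 4 were higher and 0 lower in ein5 dcl4 than in Col-0, beside the same 38.7% and 6.45% of all loci. With trimmed-mean rescaling 2 of 6 tested were higher and 2 lower, and with equal table totals 2 of 6 and 4. With equal miRNA totals 6 of 8 were higher and 0 lower. Fewer were higher without either Col-0 library. ARF4, an auxin response factor that reached 10 units in Col-0, held 11.9, 9.49 and 2.66 units in the 3 genotypes. Of 11 siRNA factors 6 were tested and 3 were higher and 0 lower, beside the same shares. With trimmed-mean rescaling 2 of 5 tested were higher and 2 lower, and with equal table totals 1 of 4 and 3. With equal miRNA totals 3 of 7 were higher and 0 lower. Fewer were higher without Col-0 library a, Col-0 library b or ein5 dcl4 library b. AGO2, an ARGONAUTE of antiviral defence and one of these factors, held 15.9 units in Col-0, 357 in ein5 dcl4 and 59.0 in ein5 dcl4 dcl2. Of the 2 young miRNA loci MIR839A and MIR840A, MIR839A alone was tested and held 1.94, 1.92 and 20.7 units. At least 10 units in Col-0 were held by 7 of the phasiRNA genes, AT1G62590 included, 1 tasiRNA target and 3 siRNA factors. Outside the main PPR cluster none of these was at or below 25% of Col-0 in both mutants in deposited units. The share was 0.479% among the 835 loci, so no result is read from so few genes.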

How the data were processed

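AGO1-bound small RNAs of 6 libraries (2 for each of 3 genotypes) were analysed from 1 deposited table of 32420 loci. The authors deposited 1 signal value per locus and genotype, headed TPM; per the file headers no scaling total is given. The tools named are Bowtie 1.2.2, SAMtools 1.9 and DESeq2 and the build is TAIR10, per the submitters' processing notes, which give no roles, and per the labels only the first read was used. The authors' deposited table also holds log2 fold changes and p-values of 2 comparisons. How multiply matching reads, strand and read length were handled is not given in the sources.

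Every deposited value above 0 was a whole number of reads times one step plus a whole number times a second step (100% of values, relative tolerance 1e-13), and the reads of both libraries behind each mean were recovered this way. Libraries are called a and b because their replicate numbers are not recorded. The design text calls replicates biological.

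limma 3.58.1 (R 4.3.3) was fitted to log2(value + 1) of 11376 loci whose mean reached 1 unit, using 1 coefficient per genotype, a trended prior, two-sided tests and Benjamini-Hochberg adjustment at 0.05. In simulated reads for ein5 dcl4 dcl2 against ein5 dcl4 (11422 loci), the test found 80% of 4-fold and 95% of 16-fold changes and made 7 false calls. The changes were placed only in loci with a higher mean over all libraries than AT1G12620, AT3G42300 and AT4G03728. The simulated spread between libraries was a dispersion of 0.00539. These shares therefore do not describe loci with as few mutant reads as the members. Rescaling, pseudocount, filter, voom and left-out libraries were tried as alternatives.

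Sequences, exons and 21-mers on both strands came from RefSeq TAIR10.1, where 31722 loci matched by identifier. The members, lists and rules were chosen with earlier results of these data known. Named loci were the members, the loci nearest each threshold and the list loci; neighbours, 21-mer partners, PPR-annotated loci, miRNA matches, the lists' tests against Col-0 and the rescaled levels of AT1G12300, MIR173 and MIR161 were added after the values were seen, as were the alternatives for the lists.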

Additional observations from a re-analysis of the deposited data

How the results depend on the processing

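No paired analysis was possible because the deposited columns carry no replicate numbers. The number of loci chosen depended on scaling: 4 as deposited, 169 with trimmed-mean rescaling, 44 with equal miRNA totals and 693 with equal table totals. AT1G12775 and AT4G03728 stayed among them in each of these scalings, and AT1G12620 and AT3G42300 in all but equal miRNA totals. A fold of 2 gave 57 loci, a fold of 8 gave 1 (AT1G12775), and a Col-0 minimum of 5 units gave 15. Leaving out 1 library gave 3 to 8 loci. AT1G12775 was the only member present in every one of these 6 cases; AT3G42300 was lost without ein5 dcl4 library b or ein5 dcl4 dcl2 library a, AT1G12620 without ein5 dcl4 library b, and AT4G03728 without Col-0 library a, ein5 dcl4 library a or ein5 dcl4 dcl2 library b. In ein5 dcl4 dcl2 against ein5 dcl4, 2 of the 4 loci were called, 0 with equal table totals, and 0 to 2 without 1 library; with equal miRNA totals 3 were called, AT3G42300 being added. The called share of all loci was 47.2%, 21% without a filter, and 22.4% to 44.7% without 1 library. The summed difference between the mutants was -11.6 units and ranged from -21.3 to -1.85 without 1 library. It was -0.62 with trimmed-mean rescaling, -0.69 with equal table totals and -33.3 with equal miRNA totals, with no change of sign in any alternative. AT3G42300 and AT4G03728, neither of which passed the test as deposited, changed sign. For AT3G42300 the log2 difference was -0.65 as deposited, 0.29 with trimmed-mean rescaling, 0.20 with equal table totals, -2.54 with equal miRNA totals (limma adjusted p 0.0319) and -2.66 to 1.36 without 1 library. For AT4G03728 it was 0.11 as deposited, -0.96 with equal miRNA totals, -0.14 with voom on recovered reads and -0.96 to 1.18 without 1 library. The cause of these changes was not tested. A mutant library resolves no level below 5.12 to 8.37 units, which limits statements on AT4G03728 most.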
